A study of Mus musculus with 6 samples.

Results

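Nuclear genes for respiratory complex I were followed in erythroblasts labelled Tfam KO or Tfam WT. They were taken from the deposited table by name, as every row with a symbol of the Nduf families a, b, c, s, v or af followed by a number, leaving out Ndufa4l2. The rule found 43 genes among 23094 rows with a gene name, 36 named as subunits and 7 named as assembly factors (Ndufaf), each on 1 row. The libraries came from CD71+Ter119+ erythroid cells sorted from fetal liver of C57BL/6 mice at embryonic day 13.5, with 3 libraries labelled Tfam KO and 3 labelled Tfam WT. Cells with the transferrin receptor (CD71) and the erythroid surface antigen Ter119 are maturing erythroblasts. Neither a Cre driver nor litter or sex is named. Since nothing says that replicates came from different embryos, a p-value here covers only how much these libraries varied, which may be technical.

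Complex I, the NADH dehydrogenase of the inner mitochondrial membrane, takes electrons from NADH and passes them to ubiquinone while pumping protons. Its N module oxidises NADH, its Q module reduces ubiquinone and its membrane arm, the P module, moves protons. Most subunits are encoded in the nucleus, while core subunits of the membrane arm are encoded by mitochondrial DNA, which the protein TFAM packages and helps to transcribe. Erythroblasts rely on mitochondria for heme synthesis and discard them as they mature. No row carried any of the symbols searched for complex I subunits encoded by mitochondrial DNA, so the genes described below are the nuclear part alone.

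Several facts of the whole series bear on these values. Tfam itself was at 5.92, 7.22 and 6.25 RPKM (reads scaled to transcript length and to the mapped reads of the library) in KO and 7.22, 8.44 and 5.72 RPKM in WT. KO and WT values overlapped (p = 0.7 by an exact permutation test, two-sided, which cannot go below 0.1 with 3 against 3), so its level does not check the labels. RPKM sums were 423618, 431786 and 535013 in KO, and 461163 and 422534 in WT replicates 1 and 2 against 814665 in WT replicate 3. WT replicate 3 had correlations of 0.930 to 0.962 with the other libraries, on the log2 scale across genes. All 14 erythroid markers searched had a mean of at least 1 RPKM, with summed levels of 11280 to 15125 RPKM in KO and 11643 to 16433 in WT. Macrophage markers summed to 8.89 to 18.3 RPKM in KO and 17.5 to 33.6 in WT, with Cd163 listed at 0 throughout, and neutrophil and granule markers to 27.4 to 69.2 in KO and 37.9 to 160.2 in WT. The highest of both sums stood in WT replicate 3, as did the highest erythroid sum and the highest sum of all RPKM. Among the WT libraries C1qa, C1qb, C1qc, Cd5l, Marco and Lyz2 were highest in WT replicate 3. Emr1, Vcam1, Mpeg1 and Mrc1 were lowest there, and Csf1r lay between the others. The part of macrophages and neutrophils in the results below was not tested. Megakaryocyte markers summed to 30.5 to 90.0 RPKM in KO and 43.2 to 79.4 in WT, and hepatocyte markers to 14.7 to 135.3 in KO and 38.6 to 84.2 in WT.

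Complex I transcripts were lower on average in the libraries labelled KO, but no gene passed the test, and the difference was not there without 1 WT library. Summed over the 43 genes, the level was 3455, 3996 and 5049 RPKM in KO replicates 1 to 3, against 4217, 3757 and 10278 RPKM in WT replicates 1 to 3. The KO libraries lay on both sides of WT replicates 1 and 2, and WT replicate 3 held more than any 2 other libraries summed. As a share of all RPKM these genes made up 0.815%, 0.925% and 0.944% in KO and 0.915%, 0.889% and 1.26% in WT. In RNA from sorted pools, fewer cells of a type and less RNA per cell cannot be told apart.

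**Figure D1:**
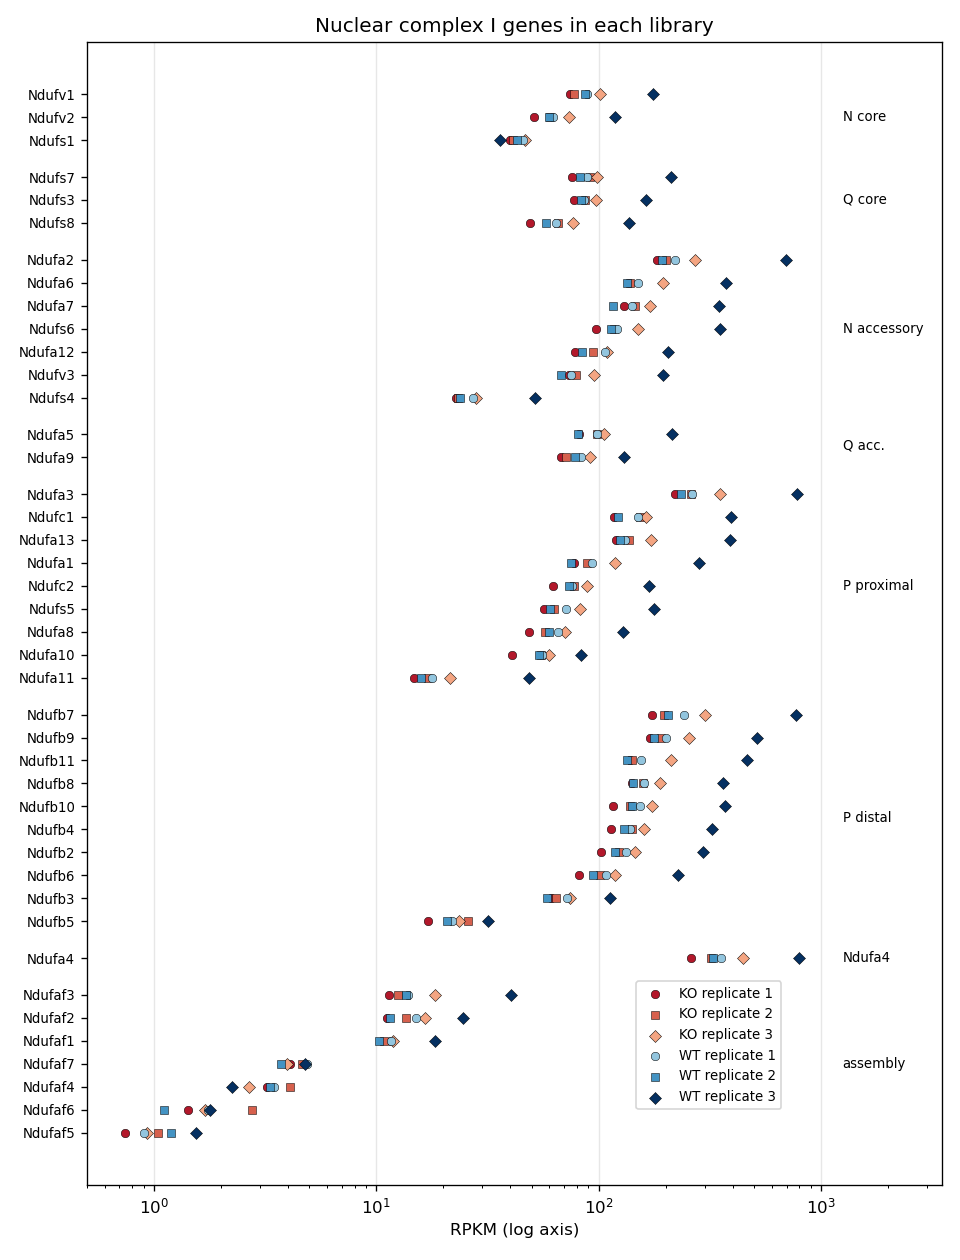
Level of nuclear complex I genes, with 1 not shown (down the page, by structural module) in each library, in RPKM on a log axis, with reds for KO and blues for WT. The darkest blue diamond, WT replicate 3, lies to the right of all other points for the genes drawn except Ndufs1, Ndufaf4, Ndufaf6 and Ndufaf7, and the other 5 libraries lie close together.

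All 43 genes had a mean of at least 1 RPKM over the 6 libraries and were tested with limma among 8302 rows. With all libraries 0 of 43 passed an adjusted p of 0.05 by limma with Benjamini-Hochberg adjustment, where 0% of all tested rows passed. At an unadjusted p under 0.05 the count was 0 of 43, where 1.20% of all tested rows passed, and the lowest unadjusted p of the 43 was 0.203. A log2 fold change below 0 was fitted for 40 of 43 genes, where 53.0% of all tested rows had one. The median log2 fold change of the 43 genes was -0.38, beside -0.019 for all tested rows. Both scalings kept it below 0, at -0.17 after quantile normalization and at -0.15 with RPKM scaled to 1 sum per library, a scaling that moved the median of all tested rows to 0.19. In none of the 43 genes did the KO libraries all lie below the WT libraries, where 2.36% of all tested rows did so, and in none did they all lie above, where 2.18% did.

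Without WT replicate 3 the difference was gone from the medians. The median log2 fold change was then 0.032, beside -0.013 for all tested rows, with 15 of 43 genes below 0, where 55.0% of all tested rows were below 0. It lay between -0.1 and 0.1 in 32 genes and between -0.2 and 0.2 in 41. Every one of the 43 intervals (95%, from the fit) included 0, and their outermost bounds were -0.62 (Ndufb7) and 0.79 (Ndufaf6). Differences within a gene's own interval are therefore not excluded by these libraries. By limma 0 of 43 passed in that comparison, where 0.0120% of all tested rows passed, and 0 of 43 had an unadjusted p under 0.05, where 2.20% did. In 0 genes did all KO libraries lie below WT replicates 1 and 2, where 5.90% of all tested rows did, or above them, where 5.42% did.

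WT replicate 3 was the highest of the 6 libraries in 39 of 43 genes, where it was highest in 41.7% of all tested rows. Its level was at least 2 times the mean of WT replicates 1 and 2 in 28 of 43 genes, where 12.2% of all tested rows reached that. The 4 exceptions were the subunit Ndufs1 and the assembly factors Ndufaf4, Ndufaf6 and Ndufaf7. Among the other 5 libraries KO replicate 3 was the highest in 38 genes and KO replicate 1 the lowest in 32. Both therefore fell on opposite sides of WT replicates 1 and 2 for most genes, although they carry the same label. Set by replicate number, KO was below WT in 42 of 43 genes for the libraries numbered 1 (55.1% of all tested rows), in 10 of 43 for those numbered 2 (58.8%) and in 41 of 43 for those numbered 3 (51.3%). The direction held in each numbered pair for 9 of 43 genes, where it did for 20.1% of all tested rows.

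**Figure D2:**
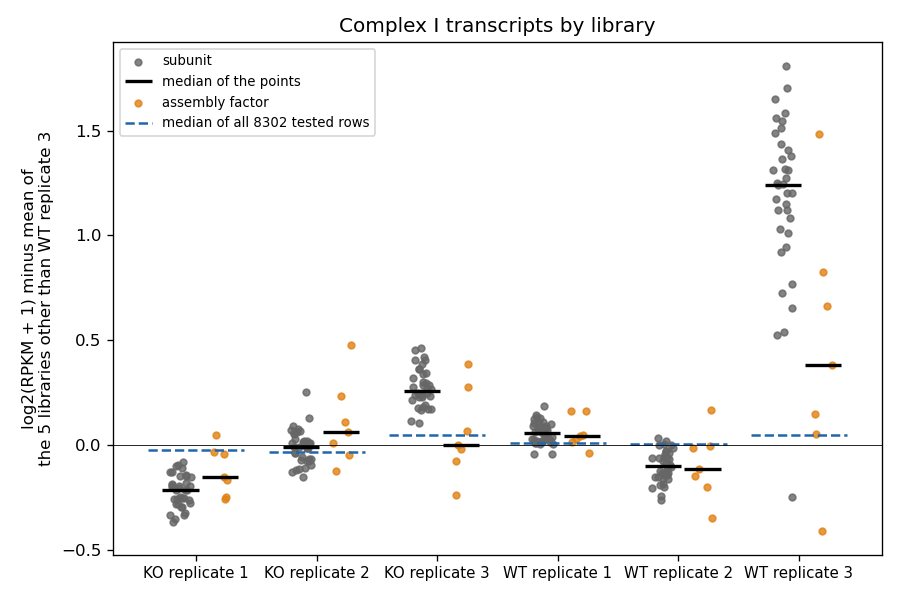
Deviation of each gene in each library from its mean over the 5 libraries other than WT replicate 3, in log2(RPKM + 1), with KO on the left and WT on the right. Subunits of WT replicate 3 have a median of 1.24 and assembly factors a median of 0.38, while the dashed lines show all tested rows, at 0.045 in that library.

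The 43 genes differed widely in level. Ndufa4 had the highest mean level per length, at 260.7, 319.9 and 446 RPKM in KO, against 354, 328 and 798 in WT. It was long counted with complex I and has since been placed in cytochrome c oxidase, complex IV. The lowest was Ndufaf5, at 0.742, 1.05 and 0.933 RPKM in KO, against 0.905, 1.20 and 1.55 in WT. Every one of the 36 subunits had a mean of at least 22.6 RPKM, above the highest mean of any assembly factor, 18.4.

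The nuclear core subunits carry the flavin, the iron-sulfur clusters and the quinone site. Ndufv1, which binds NADH and flavin, was at 74.3, 77.7 and 101.4 RPKM in KO, against 88.9, 86.4 and 175 in WT. Its log2 fold change was -0.40 (SE 0.31, 95% interval -1.13 to 0.33) with all libraries and -0.067 (-0.47 to 0.34) without WT replicate 3. The KO libraries lay around WT replicates 1 and 2, and WT replicate 3 stood alone. Ndufv2, an iron-sulfur subunit of the N module, was at 51.0, 60.6 and 73.8 RPKM in KO, against 62.5, 59.8 and 118.7 in WT, a log2 fold change of -0.32 (SE 0.30) that without WT replicate 3 was 8.8e-05.

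Ndufs1, the largest subunit and an electron carrier of the N module, did the opposite. Its level was 39.8, 41.1 and 46.4 RPKM in KO, against 45.6, 43.0 and 36.2 in WT, so WT replicate 3 was the lowest library. The means were 42.4 ± 3.50 RPKM in KO and 41.6 ± 4.87 in WT (SD, n = 3 each), a log2 fold change of 0.032 (95% interval -0.35 to 0.42) in the limma fit. It was the only subunit with a fitted value above 0 when all libraries were used, and without WT replicate 3 its value was -0.063. Ndufs1 also had the longest transcript of the 36 subunits, at 2661 bases.

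In the Q module, Ndufs3, a core subunit at the start of assembly, was at 77.6, 86.8 and 97.4 RPKM in KO, against 86.2, 83.3 and 163.6 in WT. Ndufs7, which holds the cluster next to ubiquinone, was at 76.1, 91.6 and 98.3 RPKM in KO, against 88.9, 82.4 and 212 in WT. The iron-sulfur subunit Ndufs8 was at 49.2, 65.8 and 77.0 RPKM in KO, against 64.5, 58.2 and 136.5 in WT. In each of these 3 genes WT replicate 3 was the highest library and KO replicate 1 the lowest, with the other 4 libraries between them. Their log2 fold changes were -0.28 (SE 0.29), -0.39 (SE 0.37) and -0.34 (SE 0.35) in the order given, and 0.036, 0.042 and 0.038 without WT replicate 3. The adjusted p of the core subunits named here was 0.909 to 0.960 by limma.

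Accessory subunits surround this core, and 4 of the 5 lowest fitted values of the 43 genes were theirs, the other being that of the assembly factor Ndufaf3. Ndufb7, of the distal membrane arm, was at 173.7, 197 and 301 RPKM in KO, against 243, 204 and 773 in WT. The means were 224 ± 67.7 RPKM in KO and 407 ± 318 in WT (SD, n = 3 each), and the log2 fold change of -0.63 (SE 0.52) had the lowest value of all 43 genes. WT replicate 3 was at 3.46 times the mean of WT replicates 1 and 2, the highest such ratio of the 43, and leaving it out gave -0.032 on the log2 scale (95% interval -0.62 to 0.56). Ndufa2, an accessory subunit of the N module, was at 183.4, 200.6 and 272 RPKM in KO, against 221, 193 and 693 in WT, with a log2 fold change of -0.52 (SE 0.49). Ndufs6, a zinc-binding subunit of the same module, was at 97.5, 117.6 and 151 RPKM in KO, against 121, 114 and 349.6 in WT (-0.49, SE 0.45), and Ndufb10, of the distal membrane arm, at 116.5, 137.9 and 173.8 in KO, against 152.8, 141.9 and 371 in WT (-0.51, SE 0.39). In all 4 genes the KO and WT ranges overlapped, and without WT replicate 3 the values were between -0.064 and 0.063. Adjusted p was 0.909 for each by limma.

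**Figure D3:**
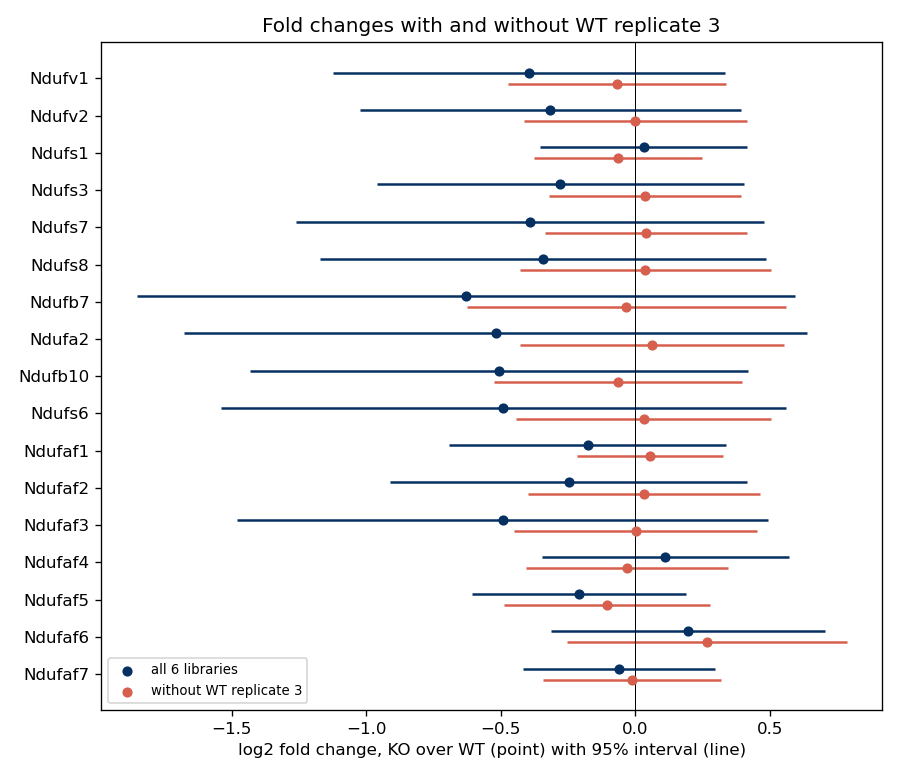
Log2 fold change of KO over WT with its 95% interval for 6 nuclear core subunits, 4 accessory subunits with low values and the 7 assembly factors, in dark blue with all 6 libraries and in red without WT replicate 3. All intervals cross 0, and the red points sit nearer to 0 than the blue ones for most genes, Ndufaf6 (0.20 and 0.27) and Ndufs1 being exceptions.

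By module, the 7 accessory subunits of the N module had a median log2 fold change of -0.38, the 2 of the Q module -0.32, the 9 measured genes of the proximal membrane arm -0.42 and the 10 of the distal arm -0.39. All of these 28 genes had fitted values below 0. The 7 core subunits had a median of -0.32, with 6 of 7 below 0. Without WT replicate 3 the medians were 0.063, 0.0020, 0.054 and 0.028 in the accessory modules and 0.036 in the core. Ndufs4, an accessory subunit whose loss in mice is used as a model of Leigh syndrome, was at 22.8, 23.4 and 28.2 RPKM in KO, against 27.3, 23.8 and 51.5 in WT. Ndufa13, a membrane subunit also known as Grim19, was at 119.3, 136.9 and 172.7 RPKM in KO, against 132, 124.7 and 389.7 in WT. Ndufb8 shares its row with Sec31b, so its value cannot be assigned to that gene alone, and it stood at 141, 157.9 and 189.7 RPKM in KO, against 159.5, 142.2 and 363 in WT.

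Assembly factors, which help to build the complex and are not part of it, showed smaller values than the subunits. Their median log2 fold change was -0.18, with 5 of 7 below 0, beside -0.39 and 35 of 36 for subunits. That direction of the assembly factors turned to 0.043 with RPKM scaled to 1 sum per library and to 0.045 with the transcript length trend removed, while that of the subunits stayed below 0 in both, at -0.16 and -0.14. Without WT replicate 3 the medians were 0.0016 for assembly factors and 0.034 for subunits. Summed, the 7 factors were at 43.7, 49.5 and 55.9 RPKM in KO, against 51.8, 44.9 and 93.8 in WT, so WT replicate 3 was highest here as well. The log2(RPKM + 1) scale understates changes of low genes, and the means of the assembly factors all lay below those of the subunits. The difference between the lists was not tested.

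Single assembly factors fell into different patterns. Ndufaf3, which acts early with Ndufaf4 in building the Q module, was at 11.4, 12.6 and 18.3 RPKM in KO, against 14.0, 13.6 and 40.4 in WT, with a log2 fold change of -0.49 (SE 0.42) that was 0.0016 without WT replicate 3. Its partner Ndufaf4 was at 3.23, 4.09 and 2.66 RPKM in KO, against 3.46, 3.31 and 2.25 in WT, so WT replicate 3 was its lowest library. The log2 fold change of Ndufaf4 was 0.11 (SE 0.19), and -0.032 without WT replicate 3. Ndufaf1, a factor for the membrane arm, was at 11.7, 10.9 and 11.8 RPKM in KO, against 11.7, 10.3 and 18.4 in WT (-0.18, SE 0.22). Ndufaf2, which binds a late intermediate, was at 11.2, 13.5 and 16.5 in KO, against 15.1, 11.6 and 24.6 in WT (-0.25, SE 0.28). In both genes WT replicate 3 was highest, at 1.67 and 1.84 times the mean of WT replicates 1 and 2, and their values were 0.055 and 0.034 without it.

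The other 3 factors, like Ndufaf4, were expressed at low levels. Ndufaf5, an enzyme known from human cells to hydroxylate Ndufs7, had a log2 fold change of -0.21 (SE 0.17), or -0.10 without WT replicate 3. Ndufaf6 was at 1.42, 2.75 and 1.69 RPKM in KO, against 1.75, 1.12 and 1.79 in WT, with the highest fitted value of the 43 genes (0.20, SE 0.22) and 0.27 (95% interval -0.25 to 0.79) without WT replicate 3. Its value rested on KO replicate 2, since without that library the log2 fold change was 0.011. Ndufaf7, known as a methyltransferase, was at 4.07, 4.65 and 3.96 RPKM in KO, against 4.86, 3.72 and 4.80 in WT (-0.059, SE 0.15). The KO and WT ranges overlapped for all 7 factors, whose adjusted p was 0.909 to 0.919 by limma.

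Transcript length moved with these values. Lengths were taken from another annotation than the authors', as the median over those GENCODE transcripts of a gene that are paired with RefSeq. Where none was paired, all transcripts of the gene were used. The 43 genes had a median length of 861 bases, 760 for subunits and 1380 for assembly factors, and 35 of 43 fell in the shortest length quintile of all tested rows (up to 1480 bases). In that quintile of 1587 rows, 84.6% had a log2 fold change below 0 and the median was -0.24, while in the longest quintile 16.6% were below 0 and the median was 0.18. The 35 complex I genes within the shortest quintile had a median of -0.39, but also shorter transcripts, with a median of 732 bases against 1018 for that quintile. Across the 43 genes the log2 fold change correlated with log2 length at a Pearson's r of 0.60 (Spearman's rho 0.56), and the deviation of WT replicate 3 at -0.72 (rho -0.67). Without WT replicate 3 the correlation of the fold change was -0.33 (rho -0.35). All points come from the same libraries, so these are descriptions with no test.

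**Figure D4:**
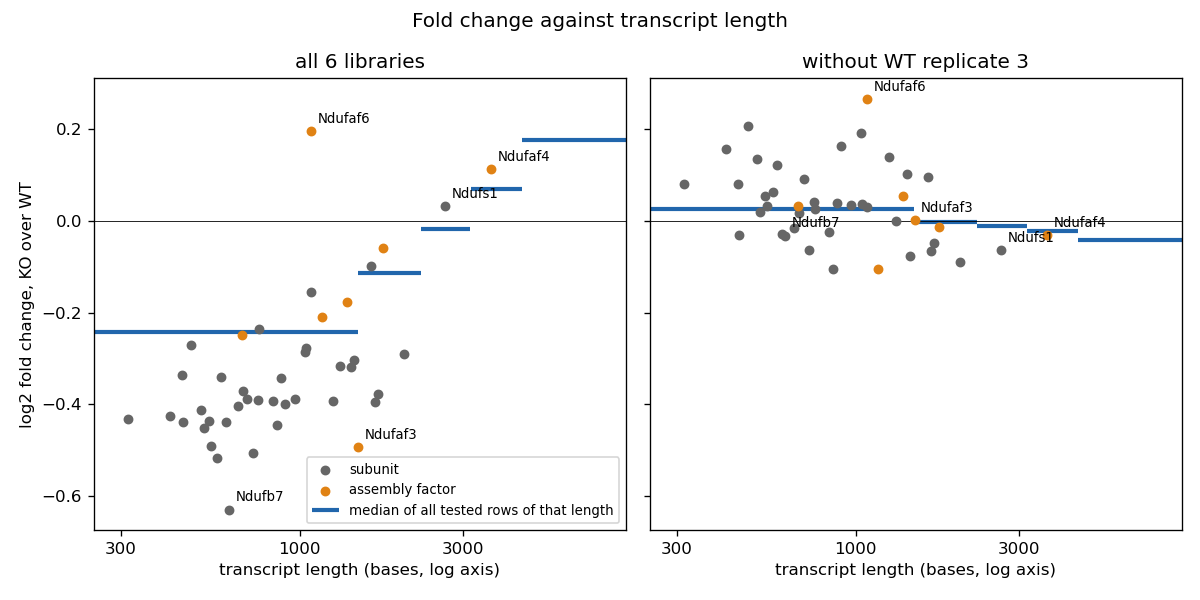
Log2 fold change of KO over WT against transcript length (log axis) for subunits and assembly factors, with all 6 libraries on the left and without WT replicate 3 on the right. Blue bars give the median of all tested rows in each quintile of length, from -0.24 to 0.18 on the left and from 0.025 to -0.042 on the right. The genes above 0 on the left are Ndufs1 (2661 bases), Ndufaf4 (3632 bases) and Ndufaf6, the highest, with only 1082 bases. The bar at the length of Ndufs1 is at -0.017 on the left.

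With the length trend of each library removed, the median of the 43 genes was -0.13, with 34 of 43 below 0, and 0 genes passed. The median of all tested rows with a length was -0.0036 in that fit. The fit still included WT replicate 3, and the medians with that library also left out are given with the alternatives below. The deviation of WT replicate 3 itself had a median of 1.24 over the 35 complex I genes of the shortest quintile, beside 0.82 for all rows of that quintile. KO replicate 3 deviated the same way to a lesser extent (0.27 beside 0.17), and KO replicate 1 the other way (-0.22 beside -0.16). The part of RNA quality or library preparation in this was not tested.

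Promoter sequences are shown for 3 genes that share a motif, of which Ndufa11 and Ndufa8 had their highest level in WT replicate 3 and Ndufaf4 its lowest. NRF1 is a transcription factor known for driving nuclear genes of the respiratory chain. The middle letters of its motif, CGCATGCG, which read the same on both strands, were chosen after the levels were known and searched in the 250 bases before each start (RefSeq, GRCm38.p6). Of the 43 genes 38 matched that table, and 3 of 38 held these letters, or 7.89%, beside 1.75% of all 27025 genes in the table. The motifs CCGGAAGT of ETS factors such as GABP, AAGATGGCG of YY1 and TCAAGGTCA of estrogen-related receptors were found, on either strand, in 0 of 38, beside 3.23%, 0.710% and 0.422% of all genes. A match is a description of letters, not a binding site. Capitals mark the NRF1 letters, and each stretch is given 5′ to 3′ on the strand named.
Ndufa11 (chr17:56717642-56717761, plus strand): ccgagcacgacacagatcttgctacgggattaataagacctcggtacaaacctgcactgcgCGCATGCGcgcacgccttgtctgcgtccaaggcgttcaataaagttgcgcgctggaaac
Ndufa8 (chr2:36049339-36049458, minus strand): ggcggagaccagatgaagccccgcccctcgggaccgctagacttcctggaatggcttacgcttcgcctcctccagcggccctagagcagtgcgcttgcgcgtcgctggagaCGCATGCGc
Ndufaf4 (chr4:24897931-24898050, plus strand): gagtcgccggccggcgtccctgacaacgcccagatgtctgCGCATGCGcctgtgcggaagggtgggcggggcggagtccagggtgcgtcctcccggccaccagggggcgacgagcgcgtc
Ndufa11, a subunit of the membrane arm with a transcript of 545 bases, was at 14.7, 17.1 and 21.4 RPKM in KO, against 17.9, 15.9 and 48.5 in WT. Ndufa8, another membrane arm subunit (861 bases), was at 48.5, 57.1 and 70.9 RPKM in KO, against 65.5, 59.8 and 128 in WT, with the lowest log2 fold change of the 43 without WT replicate 3 (-0.11).

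Other complex I genes outside the naming rule were set beside these. Of 9 such genes, 7 had fitted values below 0 (53.0% of all tested rows), with a median log2 fold change of -0.18, and 0 passed. Without WT replicate 3 their median was -0.061, with 6 of 9 below 0 (55.0% of all tested rows), while the 43 genes had a median of 0.032. Ndufab1, the mitochondrial acyl carrier protein, which is also a subunit, was at 69.7, 90.7 and 104 RPKM in KO, against 82.1, 85.8 and 159 in WT, again with WT replicate 3 highest. The assembly factor Tmem186 was at 6.01, 5.79 and 5.96 RPKM in KO, against 5.11, 5.41 and 3.94 in WT. All KO libraries thus lay above all WT libraries, where 2.18% of all tested rows did so. The log2 fold change of Tmem186 was 0.26, with an adjusted p of 0.909 by limma, and WT replicate 3 was its lowest library. Ndufa4l2, a relative of Ndufa4 known as a hypoxia-inducible gene, was at 3.91, 1.31 and 1.19 RPKM in KO, against 0.140, 0.330 and 0.511 in WT. Its groups did not overlap either, and it met the filter on low values through its KO libraries (log2 fold change 1.15, adjusted p = 0.909 by limma).

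Nuclear subunits of complexes II to V behaved much like complex I. Of 39 tested genes 38 had fitted values below 0, with a median log2 fold change of -0.36 beside -0.38 for the 43 complex I genes, and without WT replicate 3 of 0.026 beside 0.032. WT replicate 3 was the highest library in 36 of 39. These transcripts were also short, with a median of 838 bases, and the lists were not tested against each other.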

How the data were processed

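A TruSeq kit turned total RNA into libraries for an Illumina sequencer, per the labels' protocols. The authors deposited 1 table of RPKM values per gene and library, made with TopHat and Cufflinks on build mm9, per the submitters' processing notes. Neither versions nor the annotation or strandedness are given in the sources used here. The RPKM unit divides by transcript length and library total, and how well each library recovered short transcripts was not tested. Of 23119 rows, 25 carry a number for a name and were left out (0.158% of RPKM on average). Another 492 join several gene names. Absolute depth is unknown. Ratios of values below 0.05 RPKM put KO replicates 1 to 3 and WT replicate 1 at 92.3%, 84.4%, 79.0% and 88.3% of the depth of WT replicate 2. Of these ratios, 80.3% to 82.5% lay within 0.03 (log2) of whole-read steps in KO replicates 2 and 3 and WT replicate 1. In KO replicate 1 only 44.4% did, so its depth is less well resolved. WT replicate 3 was not resolved (22.4% on steps).

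From these values log2(RPKM + 1) was tested with limma 3.58.1 in R 4.3.3, without a block but with a variance trend, with Benjamini-Hochberg adjustment over 8302 rows with a mean of at least 1 RPKM. Fold changes are KO over WT on that scale, which understates changes of low genes. On simulated data for KO versus WT over 8302 genes, the test recovered 44% of changes of 1 and 83% of changes of 2 on the log2 scale, with 8 false calls among 135. The simulated noise was independent between genes and libraries, while the real deviations moved with transcript length, so these rates may not hold here. Fitted changes of the 43 genes, from -0.63 to 0.20, were also smaller than the simulated ones. Deviations from group means correlated at 0.46, 0.17 and 0.53 between libraries of the same number, each over 0.1. The fit with the replicate number as a block was therefore run as an alternative. Libraries of different number correlated at -0.51 to 0.40. The highest of these, KO replicate 1 with WT replicate 2, was above the 0.17 of the libraries numbered 2. The labels give only numbers and these correlations do not single out pairs, so the pairing is not established. The values in the text are from the fit without it. Lengths came from GENCODE release M21, which is on another build, and covered 7933 tested rows and all 43 genes.

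The genes, lists, markers and tests were chosen with earlier results of these data known. Statistics were given for Tfam, the nuclear core subunits, every tested Ndufaf gene, the 5 lowest and 5 highest fitted values and any member whose groups did not overlap. Statistics were also given for Ndufa8, Tmem186 and Ndufa4l2. These, and genes named by level alone, were chosen after their values were seen. Promoter motifs were also chosen then, and those of NRF1 and YY1 were shortened after longer forms had been searched, which raised the NRF1 count by 1 gene. A still shorter inner form of the NRF1 motif was also searched, and its count is not given here. The values of 1 core subunit are not reported here, although it stays in counts, sums and medians. Alternatives covered the pseudocount, filter, scaling, variance trend, replicate block, transcript length and each left-out library. Plots used matplotlib 3.10.9 (Python 3.11.15).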

Additional observations from a re-analysis of the deposited data

How the results depend on the processing

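No complex I gene passed under any alternative run, and the count over all tested rows was 0 except for 1 row without WT replicate 3 (also with the length trend removed, an alternative chosen after seeing the data), 1 without KO replicate 3 and 2 without KO replicate 2, all higher in KO. With the replicate block, which leaves fold changes as they are (median -0.38), 0 rows passed and the lowest adjusted p was 0.715 by limma, so the pairing changed no call. Leaving out single libraries, the median log2 fold change ranged from -0.61 to 0.032 for the 43 genes, from -0.63 to 0.034 for subunits and from -0.25 to 0.0016 for assembly factors, the upper end being without WT replicate 3 in each. Without WT replicate 1 or WT replicate 2 the median of the 43 genes was -0.53 and -0.61, and without KO replicate 1 it was -0.25. Tfam ranged from -0.24 to 0.0032 and turned to 0.089 with RPKM scaled to 1 sum. That scaling also turned Ndufaf1 (0.043), Ndufaf7 (0.14) and the median of assembly factors (0.043). Removing the length trend, with or without the replicate block, turned Ndufaf2 (0.045), Ndufaf7 (0.053) and the median of assembly factors (0.045). With that trend removed and WT replicate 3 left out, the medians were 0.0027 for subunits and -0.015 for assembly factors, Ndufs1 was at -0.063, Ndufs3 at 0.0058, Ndufs7 at 0.0056, Ndufs8 at 0.0058, Ndufaf1 at 0.037, Ndufaf4 at -0.021 and Ndufa2 at 0.018. Over the left-out libraries the ranges were -0.49 to 8.8e-05 for Ndufv2, -0.063 to 0.100 for Ndufs1, -0.45 to 0.036 for Ndufs3, -0.63 to 0.042 for Ndufs7, -0.57 to 0.038 for Ndufs8, -0.33 to 0.055 for Ndufaf1, -0.48 to 0.034 for Ndufaf2, -0.75 to 0.0016 for Ndufaf3, -0.032 to 0.23 for Ndufaf4, -0.86 to 0.063 for Ndufa2 and -0.77 to 0.032 for Ndufs6. The cause of these turns was not tested. Read depth is unknown, so no counting interval could be given.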
